A study of Saccharomyces cerevisiae with 57 samples.

Results

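Budding yeast builds its cytosolic ribosome from proteins encoded by 137 genes, named RPL or RPS followed by a digit for the large and the small subunit, with RPP0, RPP1A, RPP1B, RPP2A and RPP2B for the stalk of the large subunit. These genes, 76 RPL, 56 RPS and 5 RPP, were taken by symbol from the sacCer3 annotation, out of 6002 protein-coding nuclear genes with a start codon. Their promoters were taken as the 800 bp upstream of each start codon. Of the 5978 promoters with a full window outside the ribosomal DNA, 5972 passed a filter on low values, and these included all 137. The 137 windows together covered 106453 bp, or 0.885% of the nuclear genome without the ribosomal DNA.

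Ribosomal protein genes are among the most heavily transcribed genes of a growing yeast cell, and their output is matched to growth through nutrient signalling. At most of their promoters the general regulatory factor Rap1 binds upstream of the start site and helps to recruit Fhl1, Ifh1, Sfp1 and the HMG-box protein Hmo1, while a smaller set has long been associated with Abf1, another general regulatory factor. Reb1, a Myb-type general regulatory factor, keeps promoters free of nucleosomes and is best known from other gene classes and from the ribosomal DNA. Most ribosomal protein genes exist as A and B copies left by the ancient duplication of the yeast genome.

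In chromatin endogenous cleavage (ChEC-seq), micrococcal nuclease (MNase) is fused to a chromatin protein, calcium is added to permeabilised cells, and small DNA released by cleavage is sequenced from its ends. All strains were W1588-4C, a RAD5+ relative of W303-1A, grown in YPD and permeabilised with digitonin. The factor strains carried the genotype ABF1-3FLAG-MNase-kanMX6, RAP1-3FLAG-MNase-kanMX6 or REB1-3FLAG-MNase-kanMX6, so that each protein was tagged at its own locus, and the control strain (ura3::P_REB1-3FLAG-MNase-NLS-URA3) expressed free nuclear MNase from the REB1 promoter at another locus. Digestion ran for 10 to 60 s in steps of 10 s and for 2.5, 5, 10 or 20 m, with a library without calcium for each strain. Abf1 and Reb1 strains with a shorter linker were digested for 30 s and 5 m. So was a Reb1 strain with MNase at the N terminus of a plasmid copy (pRS413-P_REB1-MNASE-3FLAG-REB1), whose chromosomal REB1 was deleted (reb1Δ::kanMX6). Abf1 also had a library from crosslinked MNase-X-ChIP. Among the libraries used here, those of Abf1, Rap1 and Reb1 at 30 s had replicates, 3 each, and the labels do not say whether these came from separate cultures. Their p-values therefore measure the spread between these libraries, which may be technical.

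The level of a promoter below is the share of fragment ends in its 800 bp window among all ends on the nuclear chromosomes outside the ribosomal DNA, in parts in 1000000 (ppm), and other numbers of ends are given on the same scale. Each fragment gives a pair of ends, so ends are not independent. The 57 libraries held 47677 to 13480135 fragments, and the 10 libraries compared at 30 s held 2745981 to 5165350, with 4463859 to 8653897 ends used. At a member promoter this gave a median of 5414 to 6754 ends in a Rap1 library at 30 s, 655 to 1074 in an Abf1 library, 289 to 393 in a Reb1 library and 308 in the free MNase library. The free MNase library at 30 s stood apart in its cut bases. In it, 41.4% of ends lay at an A or T, against 67.0 to 98.1% in the other free MNase libraries and 90.6 to 97.5% in the 9 factor libraries at 30 s, where the genome holds 61.7% A or T. Its comparisons are therefore given with the free MNase library of 40 s in its place as well, an alternative chosen after the data were seen. Libraries up to 60 s and from 2.5 m on carry different date codes in the factor strains, so across that step time and code cannot be told apart in them.

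The sequences on which the results turn are shown here, each read from sacCer3 in the 5′ to 3′ direction of the strand given. Capitals mark a match to a letter pattern, with N as any base. The Rap1-type pattern was ANCCNTACA. The 4 promoters below stood among the 10 with the most Rap1 ends. RPS21B holds a pair of matches that lie 17 bp apart, and RPL31B holds 3 in a row, of which the middle match is in capitals.
RPS21B, chrX:157593-157629, minus strand: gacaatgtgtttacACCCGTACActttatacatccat
RPS21B, chrX:157576-157612, minus strand: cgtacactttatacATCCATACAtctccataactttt
RPL31B, chrXII:932255-932291, minus strand: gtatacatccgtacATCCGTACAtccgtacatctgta
RPL6B, chrXII:1028401-1028437, minus strand: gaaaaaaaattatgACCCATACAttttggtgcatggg
RPL42B, chrVIII:383089-383125, minus strand: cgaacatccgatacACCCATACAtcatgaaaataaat
RPL12B and RPL12A also ranked among those 10, although their windows hold no Rap1-type match, and capitals in the 60 bases at the centre of their most cut 100 bp mark the looser ANCCNNACA on either strand.
RPL12B, chrIV:1301098-1301157, plus strand: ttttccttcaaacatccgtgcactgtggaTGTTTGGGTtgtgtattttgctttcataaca
RPL12A, chrV:53690-53749, minus strand: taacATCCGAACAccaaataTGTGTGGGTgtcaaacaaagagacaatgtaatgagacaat
The Reb1-type pattern was TTACCCG. The promoters of RPS14A, RPL11A, RPL18B and RPL15B hold it and were, with RPL3, the 5 with the most Reb1 ends.
RPS14A, chrIII:178897-178931, plus strand: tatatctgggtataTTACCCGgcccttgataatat
RPL11A, chrXVI:731974-732008, plus strand: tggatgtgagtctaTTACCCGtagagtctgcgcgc
RPL18B, chrXIV:64717-64751, minus strand: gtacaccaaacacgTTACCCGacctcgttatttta
RPL15B, chrXIII:510486-510520, minus strand: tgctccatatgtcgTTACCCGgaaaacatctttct
The Abf1-type pattern was TCANT, any 4 bases and ACG. RPS22B, RPS28A and RPS28B hold it and had fewer Rap1 than Abf1 ends.
RPS22B, chrXII:855691-855730, minus strand: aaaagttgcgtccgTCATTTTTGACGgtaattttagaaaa
RPS28A, chrXV:649146-649185, plus strand: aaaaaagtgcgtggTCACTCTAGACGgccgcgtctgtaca
RPS28B, chrXII:672936-672975, minus strand: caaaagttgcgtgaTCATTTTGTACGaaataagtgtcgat
RPS2 and RPL3 had the most Abf1 ends without this pattern, and the 60 bases at the centre of their most cut 100 bp in the Abf1 libraries are shown with no match in capitals.
RPS2, chrVII:277124-277183, plus strand: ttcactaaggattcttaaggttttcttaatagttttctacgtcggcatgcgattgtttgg
RPL3, chrXV:444399-444458, plus strand: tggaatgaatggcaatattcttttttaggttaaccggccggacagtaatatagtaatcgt

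At 30 s, Rap1-MNase cut the ribosomal protein gene promoters far more than any other strain. In the Rap1 replicates at 30 s, 13.8%, 13.4% and 12.4% of all ends lay in the 137 windows (13.2 ± 0.761%, mean ± SD, n = 3, as for every ± at 30 s below), 14.9 ± 0.860 times the share of the genome that these windows make up. In the Abf1 replicates the share was 2.51%, 2.42% and 2.51% (2.48 ± 0.0499%), or 2.80 ± 0.0564 times the genome share. In the Reb1 replicates it was 1.28%, 1.57% and 1.68% (1.51 ± 0.206%). The free MNase library at 30 s placed 0.829% of its ends there (95% Wilson interval 0.821 to 0.837%), below the share of the genome. The shares of the 3 factors did not overlap.

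**Figure D1:**
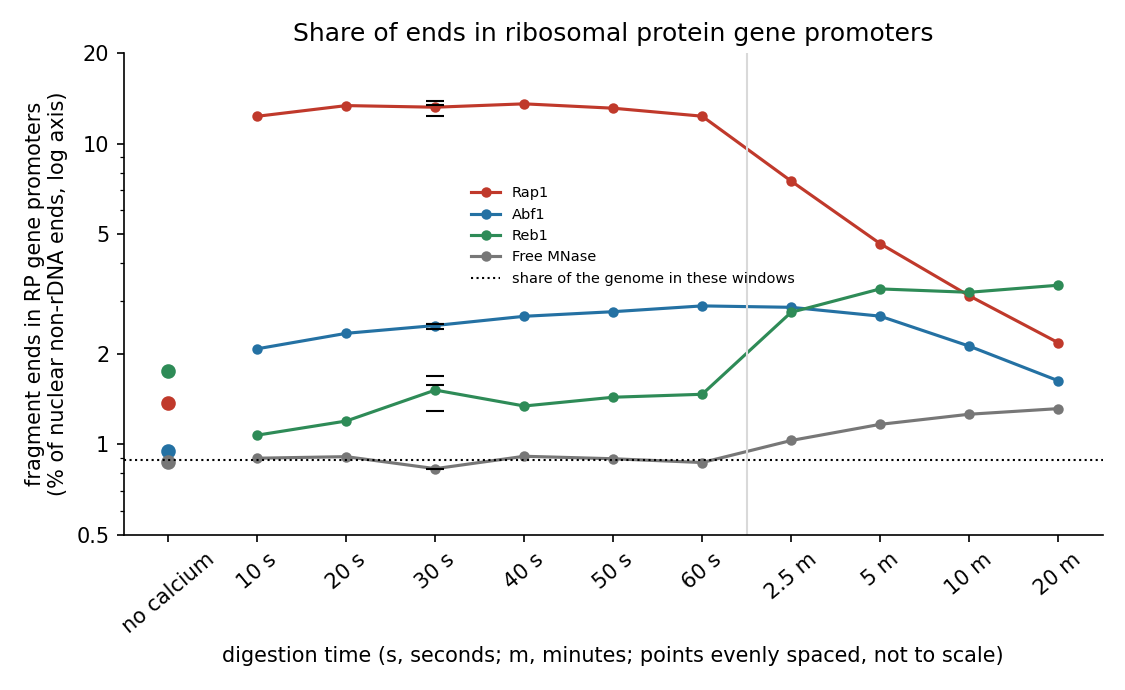
Percent of nuclear ends outside the ribosomal DNA that lay in the 137 promoter windows (log axis), by digestion time, for the 3 factor strains and free MNase, with black ticks for the single replicates at 30 s, unconnected points for libraries without calcium, a dotted line at the share of the genome and a grey line where the date codes change. The Rap1 strain started at 12.3% at 10 s and ended at 2.18% at 20 m, the Reb1 strain went from 1.07% to 3.38%, and the free MNase strain stayed between 0.829% and 1.31%.

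The excess ran through nearly the whole family. The median member level was 1075, 972 and 929 ppm in the Rap1 replicates, where the median of all promoters was 27.4, 29.2 and 26.1, and 134 of the 137 members lay above that median in each replicate. The ratio of these medians was 36.0 ± 3.01 in Rap1, 2.07 ± 0.184 in Abf1 and 1.55 ± 0.111 in Reb1, and it was 0.972 in free MNase. The large and the small subunit stood close together, with median Rap1 levels of 1006 for the 76 RPL and 978 for the 56 RPS promoters, and the 5 stalk genes had a median of 728. The 56 genes for mitochondrial ribosomal proteins, whose ribosome is of bacterial origin, had a median Rap1 level of 19.2. Ranked among all 5972 promoters, members made up 9 of the 50 with the highest Rap1 level, 23 of the highest 100 and 64 of the highest 200, whereas 2 of the highest 100 for Abf1 and 1 of the highest 50 for Reb1 were members.

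**Figure D2:**
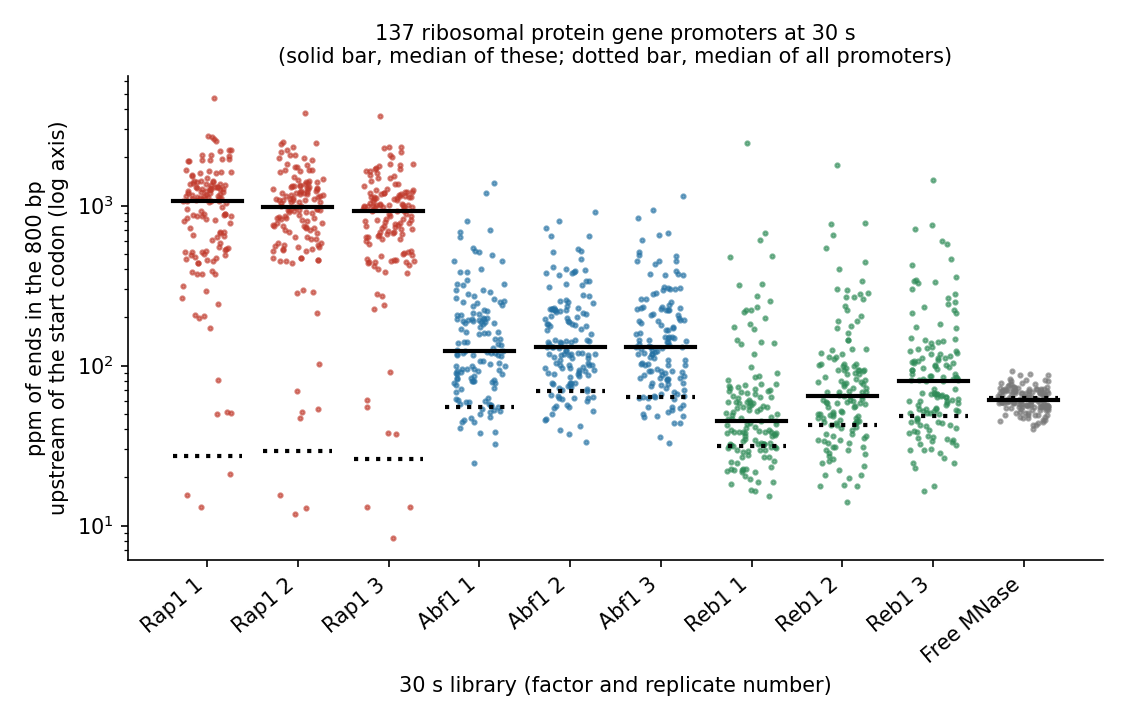
Level of each of the 137 promoters (points, log axis) in the 3 Rap1, 3 Abf1 and 3 Reb1 replicates and the free MNase library at 30 s, with the median of these promoters (solid bar) and of all promoters tested (dotted bar). Most members lie above the dotted bar in the Rap1 replicates, where 3 members form a group at the bottom, while the free MNase values span 40.0 to 93.0.

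Each comparison at 30 s was made with limma over all 5972 promoters, on log2 of the level plus 1, and a promoter was called where the adjusted p was below 0.05 and the difference at least 2-fold. Because levels are shares of a fixed total, ends gathered at some promoters lower all others, and the median of all promoters was 1.18 lower on the log2 scale in Rap1 than in free MNase. Free MNase is a single library, so its spread was taken from the factor replicates. Against free MNase, 129 members were higher in Rap1, 3 were lower and 5 were not called. Among all promoters, 16.2% were called higher and 53.9% lower in that comparison. The members' median log2 difference was 3.95, against −1.18 for all promoters. With free MNase at 40 s in place of 30 s, 129 members were higher and 4 lower. RPL4A, RPS22B and RPS28A were the 3 members called lower than free MNase at 30 s. The mean Rap1 level also lay below free MNase at RPP2B (46.8 against 87.8) and RPL4B (45.2 against 56.6), without a call. With all libraries scaled to the median of all promoters none of the 137 was called lower.

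Between factors, 121 members were higher in Rap1 than in Abf1, 8 were lower and 8 were not called, against 11.1% higher and 48.0% lower among all promoters, and the members' median difference was 2.87 (all promoters, −0.94). Higher calls took in 70 of 76 RPL, 49 of 56 RPS and 2 of 5 RPP promoters. Of the 56 mitochondrial ribosomal protein promoters, 4 were higher and 41 lower in this comparison. Rap1 was above Reb1 at 125 members, below it at 3 and not called at 9, where 15.0% of all promoters were higher and 35.0% lower, and the median difference was 3.95 (all promoters, −0.55). Within libraries that share a date code, the members' median of Rap1 over Abf1 was 2.97 and 2.81 for the 2 codes available, with 121 members at least 2-fold higher and 8 at least 2-fold lower in each, and that of Rap1 over Reb1 was 3.75. The 6 comparisons share libraries with each other and are not independent.

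At 121 members (88.3%) all 3 Rap1 replicates lay above all 6 Abf1 and Reb1 replicates, a pattern that 13.2% of all promoters showed. For Abf1 the same pattern held at 8 members, where 34.4% of all promoters showed it, and for Reb1 at 2 members, RPL15B and RPL11A, against 22.1%. With identical fragments counted once, 1 member showed it for Reb1. The 8 Abf1 members were RPL4A, RPL4B, RPP1A, RPP2B, RPS28A, RPS28B, RPS22B and RPL3, the same 8 that were called lower in Rap1 than in Abf1.

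RPS21B, for a protein of the small subunit, was the member with the most Rap1 ends and stood 15th of all promoters. Its Rap1 level was 4712, 3793 and 3617 in the 3 replicates (4041 ± 588), beside 218, 223 and 222 in Abf1, 64.3, 93.6 and 99.0 in Reb1 and 68.7 in free MNase. No factor overlapped with another, and Rap1 exceeded Abf1 by 4.18 on the log2 scale (SE 0.218, limma adjusted p = 1.22e-15). The 100 bp around its match nearest the gene, printed above as the second RPS21B line, held 1559.9 ± 240.4 ppm of Rap1 ends, against 30.6 ± 2.03 for Abf1 and 8.17 for free MNase.

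RPL12A and RPL12B encode the same large subunit protein, which lies at the base of the stalk. The RPL12A level was 2614, 2328 and 2292 in Rap1, 88.9, 111 and 91.9 in Abf1 and 71.9, 109.5 and 112 in Reb1, so that the Abf1 and Reb1 replicates overlapped and the Rap1 replicates stood apart (Rap1 over Abf1, 4.62 on the log2 scale, SE 0.220, limma adjusted p = 2.80e-16). The RPL12B level was 2677, 2434 and 2337 in Rap1 and 139.7, 144 and 159.5 in Abf1 (4.06 on the log2 scale, SE 0.231, limma adjusted p = 5.63e-15). The stretches printed for these genes held 839 and 955 ppm of Rap1 ends in their most cut 100 bp. Exact letters therefore did not mark every strongly cut member.

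The other members among the first 10 for Rap1 were RPL6B, RPL31B, RPL33B and RPL42B of the large subunit, RPS15 and RPS4B of the small subunit, and RPP2A, an acidic stalk protein. Their mean Rap1 levels ran from 1881 at RPS4B to 2513 at RPL6B, and each was higher in Rap1 than in Abf1, by 1.76 on the log2 scale at RPL31B to 4.15 at RPS4B. RPL31B and RPL6B were also strongly cut by Abf1-MNase, with 700.0, 645 and 655 and 635, 722 and 676 in the Abf1 replicates. RPS15 and RPP2A are divergent neighbours whose windows overlap, so their levels, 1935, 2055 and 1813 and 1940.1, 2059 and 1816 in Rap1, count nearly the same ends. The windows of 10 members in 5 such pairs overlap, the others being RPS16B with RPL13A, RPL24A with RPL30, RPS22A with RPL39, and RPL13B with RPS16A. At 83 members the window also overlaps that of a gene on the opposite strand, so the ends cannot be assigned to a single gene.

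A few members were almost free of Rap1 cleavage within the 800 bp window. RPS22B, for a small subunit protein, had the lowest level of the family, 13.1, 11.9 and 8.38 in the Rap1 replicates, below 95.8, 93.3 and 127 in Abf1 and 45.4 in free MNase, and also below 16.4, 14.1 and 16.4 in Reb1. The most cut 100 bp of RPS22B was centred 741 bp upstream in Abf1, 750 in Rap1 and 748 in Reb1, at the far edge of the window. Ends beyond the window are not counted. RPL4A, whose protein lines the exit tunnel of the large subunit, had 15.4, 12.9 and 13.1 in Rap1, 21.8, 19.9 and 26.4 in Reb1 and 199, 181 and 207 in Abf1. RPS28A, of the small subunit, had 21.0, 15.6 and 13.1 in Rap1 and 196, 166 and 184 in Abf1. At all 3 genes the Abf1 replicates lay above the Rap1 and Reb1 replicates and the free MNase library.

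RPL4B, RPP2B, RPP1A and RPS28B formed a step above them. The Rap1 level was 50.8, 46.9 and 37.9 at RPL4B, 51.6, 51.4 and 37.4 at RPP2B, 50.0, 53.7 and 55.2 at RPP1A and 81.2, 69.9 and 60.6 at RPS28B, beside a median of 27.4, 29.2 and 26.1 over all promoters. The Abf1 level was 317, 338 and 305 at RPL4B, 518, 465 and 509.9 at RPP2B, 245, 252 and 296 at RPP1A and 186, 186 and 197 at RPS28B. Rap1 therefore lay above the median promoter of its own libraries at these 4 genes and still below Abf1 in every replicate. Free MNase at 30 s, at 56.6 and 87.8, exceeded all Rap1 replicates at RPL4B and RPP2B. At RPP1A and RPS28B it lay below them, at 45.0 and 40.0, but free MNase at 40 s was 104 at RPS28B. The log2 difference of Rap1 from Abf1 was −3.73 at RPL4A (SE 0.199, limma adjusted p = 1.66e-15), −3.40 at RPS28A (SE 0.209) and RPP2B (SE 0.212), −3.14 at RPS22B (SE 0.217), −2.81 at RPL4B (SE 0.221), −2.29 at RPP1A (SE 0.201) and −1.42 at RPS28B (SE 0.220), the last with an adjusted p of 1.50e-06.

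RPL3, which reaches the peptidyl transferase centre of the large subunit, was cut by Abf1-MNase and Reb1-MNase and little by Rap1-MNase. Its level was 1201, 805 and 942 in Abf1, 675, 769 and 716 in Reb1, 173, 103 and 91.8 in Rap1 and 67.7 in free MNase. All Abf1 replicates lay above all Reb1 replicates, and both lay above all Rap1 replicates. Rap1 was below Abf1 by −3.03 on the log2 scale (SE 0.237, limma adjusted p = 3.74e-12) and below Reb1 by −2.60 (SE 0.237, adjusted p = 9.61e-11). The most cut 100 bp held 346 ppm of Abf1 ends at chrXV:444399-444458 and 295 ppm of Reb1 ends at chrXV:444373-444432, stretches that overlap in part.

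Abf1-MNase left a moderate excess across the family. The median member level was 124, 130.1 and 131 in the Abf1 replicates, against 55.0, 68.9 and 63.4 for all promoters. Compared with free MNase, 70 members were higher, 0 were lower by limma and 67 were not called, where 33.2% of all promoters were higher and 28.8% lower. At an unadjusted p below 0.05, 1 was lower. The members' median difference was 1.06 on the log2 scale, against −0.03 for all promoters. The calls took in 34 of 76 RPL, 31 of 56 RPS and 5 of 5 RPP promoters. With free MNase at 40 s, 67 were higher and 1 was lower.

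RPS2, for a protein of the small subunit near its mRNA entry site, had the highest Abf1 level of the family, 1384, 905 and 1151 in Abf1 beside 955, 995 and 826 in Rap1 and 63.3, 99.0 and 112 in Reb1. The Abf1 and Rap1 replicates overlapped, and their difference of −0.29 (SE 0.234) did not pass the test (limma adjusted p = 0.253). Abf1 ends gathered at chrVII:277124-277183, with 381 ppm in the 100 bp there. The Rap1-type match of RPS2, whose 100 bp held 398 ± 33.6 Rap1 ends, lies 384 bp upstream of the start codon and downstream of that stretch. At RPS4A, of the small subunit, the Abf1 level was 800.3, 649.6 and 835 and the Rap1 level 1965, 1672 and 1523, with no overlap and a Rap1 excess of 1.17 (adjusted p = 0.000105).

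Reb1-MNase was closest to free MNase over the family as a whole. The median member level was 45.3, 64.7 and 80.4 in the Reb1 replicates, against 31.4, 42.3 and 48.3 for all promoters. Compared with free MNase, 23 members were higher, 18 lower and 96 not called, where 25.0% of all promoters were higher and 40.2% lower, and the members' median difference was 0.01 (all promoters, −0.65). Scaling to the median of all promoters turned this split to 46 higher and 0 lower. With free MNase at 40 s, 22 were higher and 23 lower, and within the code that a Reb1 replicate shares with free MNase the members' median was −0.44. Abf1 was above Reb1 at 72 members, below at 11 and not called at 54 (32.1% and 18.7% of all promoters were higher and lower). The median difference was 1.08, against 0.37 over all promoters, and it was 0.79 within a shared code. Scaled to the median of all promoters, 40 were higher and 17 lower.

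The 11 members below Reb1 in Abf1 were RPS14A, RPL41A, RPL40A, RPL40B, RPS4B, RPL15B, RPL18B, RPS30B, RPL33A, RPL43A and RPL11A. RPS14A, whose protein sits on the platform of the small subunit, led them with a Reb1 level of 2475, 1793 and 1443, beside 1924, 1814 and 1655 in Rap1 and 199, 176 and 189 in Abf1. The Reb1 and Rap1 replicates overlapped (difference −0.05, SE 0.219, limma adjusted p = 0.844). Their ends lay at different places in the window. The Reb1-type match printed above, 694 bp upstream, held 1391 ± 527 Reb1 ends in its 100 bp, or 73.1% of the Reb1 ends of the window, and it lies past the edge of the neighbouring gene, at 389 bp upstream. The most cut 100 bp for Rap1, centred on chrIII:178484-178543, held 785 Rap1 ends. With a window of 500 bp, which leaves out the Reb1-type match, Rap1 was above Reb1 at this gene by 2.54 on the log2 scale.

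RPL11A, whose protein binds the central protuberance of the large subunit, had a Reb1 level of 606, 778 and 758 and a Rap1 level of 515, 549.7 and 481, with no overlap and a Rap1 difference of −0.46 (SE 0.209, limma adjusted p = 0.0493) that is under 2-fold. The difference was 0.35 with identical fragments counted once and 0.06 with scaling to the median promoter, so its direction depends on the processing. RPL15B, of the large subunit, had 480.4, 545 and 574 in Reb1, 293, 212 and 225 in Rap1 and 239, 224 and 286 in Abf1. Rap1 was below Reb1 there by −1.14 (SE 0.213, adjusted p = 3.09e-05), while the Rap1 and Abf1 replicates overlapped (−0.04, SE 0.213, adjusted p = 0.856). At RPL18B, also of the large subunit, the Reb1 level of 481, 649.9 and 597 and the Rap1 level of 682, 701 and 639.9 overlapped, and their difference did not pass the test (0.24, SE 0.207, adjusted p = 0.303). The Reb1-type matches of RPL11A, RPL18B and RPL15B held 229 ± 53.1, 175 ± 30.3 and 210.0 ± 8.63 Reb1 ends in their 100 bp, against 4.58, 6.57 and 10.2 free MNase ends. The most cut 100 bp for Reb1 was centred within 8 bp of the match at RPL18B and 3 bp at RPL15B, but at RPL11A it held 330 ppm and lay 215 bp from the match. RPS28A, low in both, was, after RPL3 and RPL15B, the remaining member lower in Rap1 than in Reb1 (−1.02, SE 0.209, adjusted p = 8.95e-05). With identical fragments counted once and with scaling to the median promoter, RPL3 alone of these 3 was called, and RPL15B (−0.76 and −0.62) and RPS28A (−0.79 and −0.50) were under 2-fold. RPS28A was also under 2-fold without Rap1 replicate 2 or 3 or Reb1 replicate 2 or 3, at −0.88 without Rap1 replicate 3.

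The letter patterns divided the members unevenly. The Rap1-type pattern was present in 81 of 137 windows, or 59.1%, against 9.51% of all promoters of the same length and 12.5% of those of mitochondrial ribosomal protein genes. The Abf1-type pattern was in 15 windows (10.9%, against 12.7% of all), the Reb1-type pattern in 9 (6.57%, against 12.6%), and GACGCA, a Fhl1-type pattern, in 29 (21.2%, against 17.4%). Both strands were searched, and GACGCA can overlap the end of an Abf1-type match. The looser ANCCNNACA, which includes every Rap1-type match, was in 105 windows (76.6%, against 27.9%), and ACCCNNACA in 63 (46.0%, against 8.10%).

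Members without the pattern were still cut. The median Rap1 level was 1084 over the 81 members with a Rap1-type match and 727 over the 56 without, whereas it was 44.7 over 487 other promoters with a match and 25.8 over 5348 others without. The labels of the other factors could be checked in the same way outside the family, where the median Reb1 level was 334 with a Reb1-type match and 33.3 without, and the median Abf1 level 261 with an Abf1-type match and 51.1 without. Within the family the 9 members with a Reb1-type match had a median Reb1 level of 287, against 57.3 for the rest, and the 15 with an Abf1-type match had a median Abf1 level of 228, against 122.

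Rap1 ends and Rap1-type matches occupied the same part of the promoter. The 109 matches, in 81 members, lay at a median of 340 bp upstream of the start codon (quartiles 285 and 426), 84 of them between 200 and 500 bp, and 85 read toward the gene against 24 that read away. A match that lies where member windows overlap was counted for each gene, so the 109 are not all distinct sites. The genes of such a pair are divergent, so the match adds to both the toward and the away count. A single match was found in 59 members. The most cut 100 bp for Rap1 lay at a median of 326 bp (quartiles 269 and 403) and held a median of 42.7% of the Rap1 ends of the window. Its centre was within 50 bp of a match in 69 members and farther in 12, and 56 members had no match.

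By distance from the start codon, the mean Rap1 level per promoter was highest in the 20 bp from 321 to 340 bp, at 51.8 ± 2.54 ppm. The interval from 200 to 500 bp held 55.6 ± 2.35% of Rap1 ends, 45.0 ± 0.866% of Abf1 ends, 40.8 ± 2.98% of Reb1 ends and 37.6% of free MNase ends, where even coverage would give 37.5%. Abf1 ends were highest from 241 to 260 bp, at 7.49 ± 0.652. The highest Reb1 bin, 8.65 ± 3.00 at 681 to 700 bp, holds the RPS14A match at 694 bp. At 89 members the coding sequence is split by an intron, and at 105 an upstream gene reaches into the window.

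**Figure D3:**
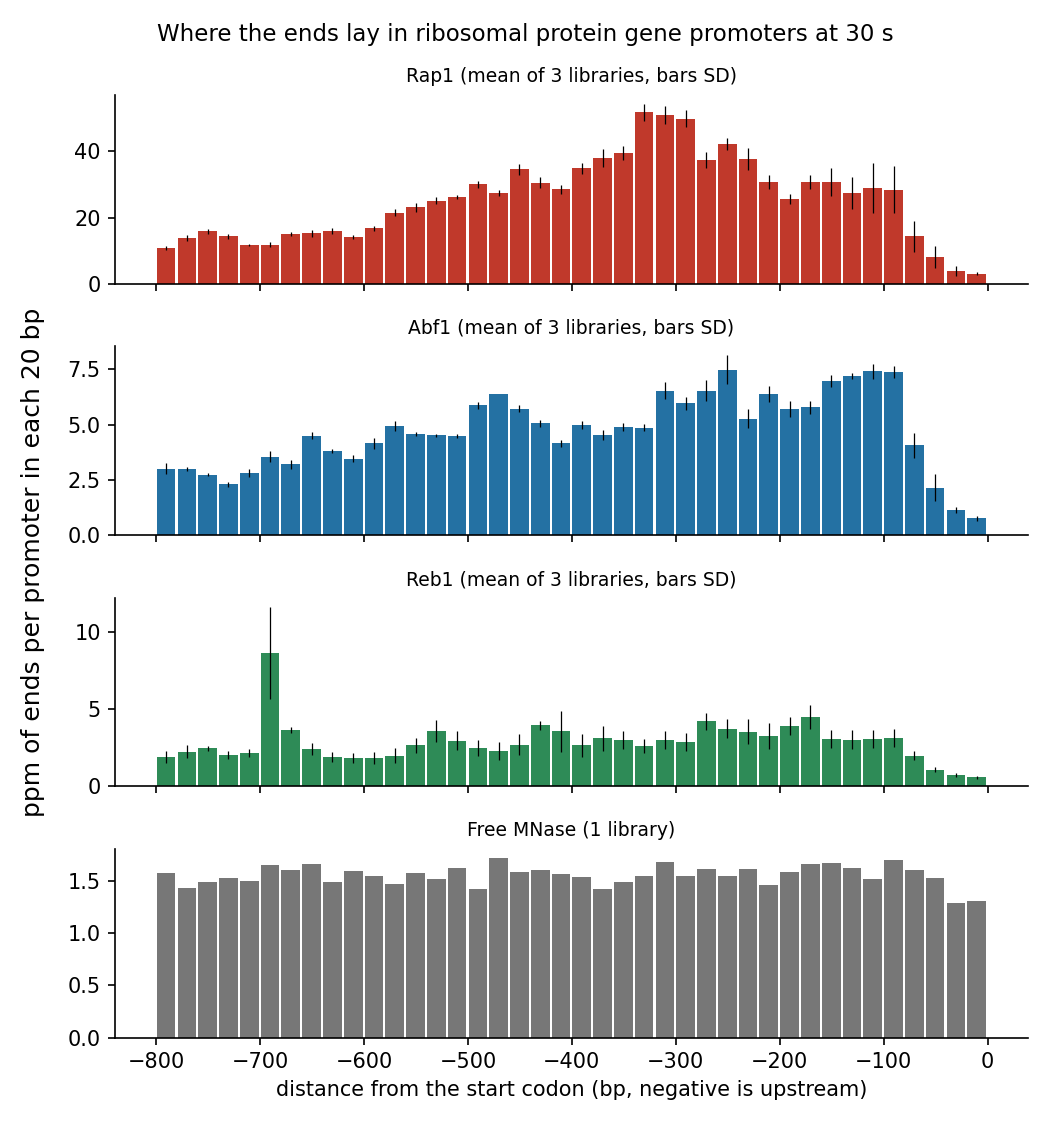
Mean ppm of ends per promoter in bins of 20 bp, by distance upstream of the start codon, for Rap1, Abf1 and Reb1 (mean of 3 replicates, bars SD) and free MNase (1 library) at 30 s. Rap1 ends form a hump with its top at 321 to 340 bp, free MNase ends are nearly even, and the single high Reb1 bin at 681 to 700 bp is that of RPS14A.

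Around the matches themselves, Rap1 ends were few inside the pattern and many beside it. Over the 96 distinct matches with 100 bp on either side, the 9 bp of the match held 0.430 ± 0.0689 ppm of Rap1 ends per base, while the bases from 10 to 30 bp on either side held 5.54 ± 0.221, a ratio of 13.1 ± 2.10. The highest bases were 9 bp before the centre, at 9.39 ± 0.628, and 10 bp after it, at 18.2 ± 0.769. Summed from 5 to 50 bp, the side after the match, in the direction of the printed pattern, held 255 ± 10.1 ends and the side before held 159 ± 12.7, with no overlap between replicates. The same ratio of flank to match was 8.21 ± 1.97 in Abf1 and 6.71 ± 2.52 in Reb1, at much lower levels (0.265 ± 0.0329 and 0.117 ± 0.0349 per base in the flanks), and it was 0.765 in free MNase. The base composition of the pattern, which MNase cuts unevenly, is shared by all of these values, and its part was not tested. The free MNase ratio is from the 30 s library, with 41.4% of ends at an A or T, against 90.6 to 97.5% in the factor libraries. It therefore does not show how the base preference of the factor libraries acts on the pattern.

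**Figure D4:**
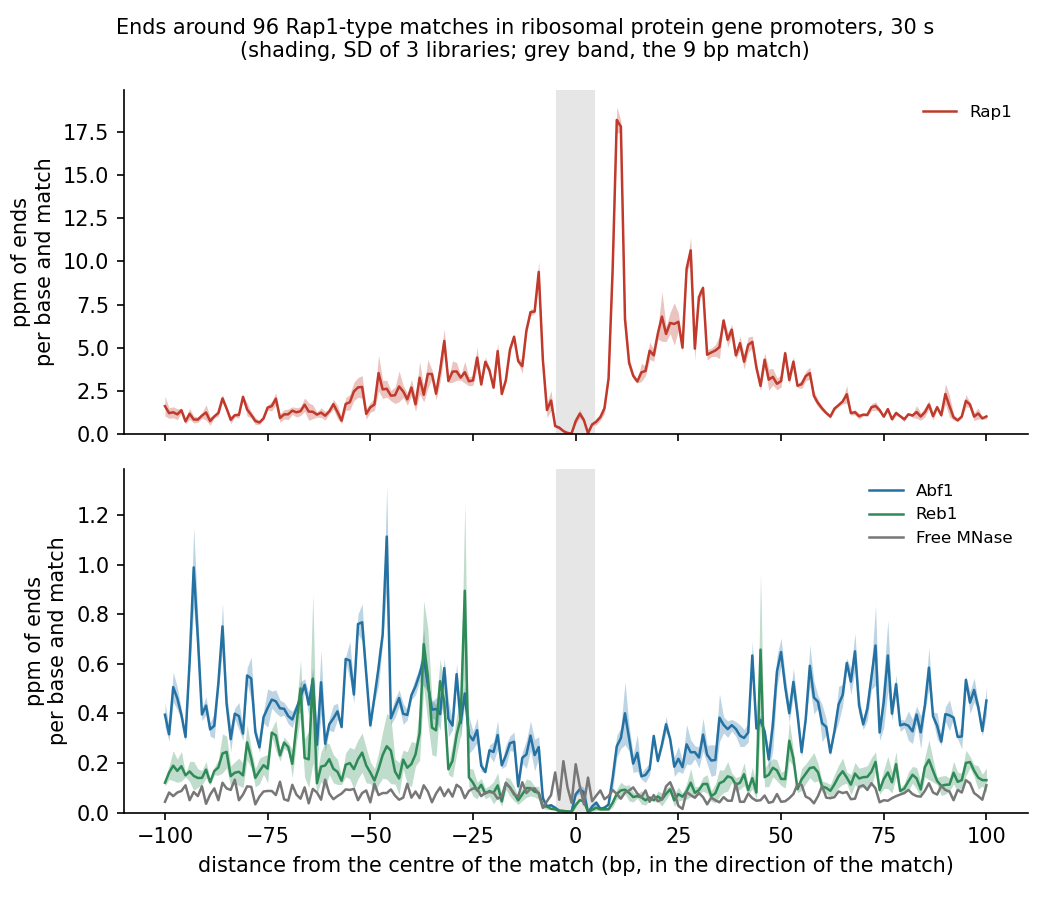
Ends in ppm per base and match at 30 s, by distance from the centre of 96 Rap1-type matches in these promoters and in the direction of the match, for Rap1 (upper panel) and for Abf1, Reb1 and free MNase (lower panel). The shaded 9 bp of the match is a gap in Rap1 ends between a peak of 9.39 at 9 bp before and a peak of 18.2 at 10 bp after the centre.

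The A and B copies of a gene often differed. Among 59 duplicated pairs, which take in 118 members, the copies differed by more than 2-fold in mean Rap1 level in 19, with the A copy higher in 9 and the B copy in 10. In 46 of the 59 pairs, all 19 among them, the Rap1 replicates of the copies did not overlap. How far members that are not copies differ was not measured. In Abf1 28 pairs and in Reb1 31 pairs differed by more than 2-fold. The largest Rap1 difference was at RPS22, where RPS22A had 1347, 1215 and 1138 and RPS22B 13.1, 11.9 and 8.38, a log2 ratio of 6.69 ± 0.20 over the replicates. Ends of RPS22B beyond its window, at whose edge its most cut bases lay, are not in this ratio. RPS22A shares its region with RPL39, and its Rap1-type match, 65 bp upstream, held 59.3 ± 22.1 of its ends. In Abf1 the order was the opposite, with 52.1, 54.9 and 43.5 at RPS22A and 95.8, 93.3 and 127 at RPS22B.

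The stalk genes split in the same manner. RPP2A, which shares its region with RPS15, had 1940.1, 2059 and 1816 in Rap1 and RPP2B 51.6, 51.4 and 37.4 (log2 ratio 5.36 ± 0.19), while Abf1 had 191, 229.6 and 238 at RPP2A and 518, 465 and 509.9 at RPP2B. RPP1A and RPP1B encode the partner acidic proteins, and here the B copy was higher in Rap1, with 50.0, 53.7 and 55.2 at RPP1A and 774, 845 and 891 at RPP1B (log2 ratio of A to B, −3.96 ± 0.03). Their Abf1 levels overlapped, with 245, 252 and 296 and 262, 222 and 225. Each stalk pair thus joined a copy with high Rap1 to a copy with more Abf1 than Rap1 ends. At RPP1B the Rap1-type matches 270 and 246 bp upstream held 350.4 ± 37.7 and 306 ± 30.3 Rap1 ends in overlapping windows of 100 bp.

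RPS21 and RPL43 completed the 5 most unequal pairs. RPS21A had 464, 583 and 507 in Rap1, well below RPS21B (log2 ratio −2.96 ± 0.34), and 236, 323 and 302 in Abf1, so that its excess in Rap1 over Abf1 (0.86 on the log2 scale, limma adjusted p = 0.000681) was under 2-fold. RPL43A, of the large subunit, had 205, 287 and 239 in Rap1 and 199, 262 and 302 in Reb1, which overlap. RPL43B had 1398, 1319 and 1198 in Rap1 and 55.2, 65.6 and 82.6 in Reb1 (log2 ratio of A to B in Rap1, −2.43 ± 0.30). The order of the copies was thus opposite in Rap1 and Reb1 at this pair.

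**Figure D5:**
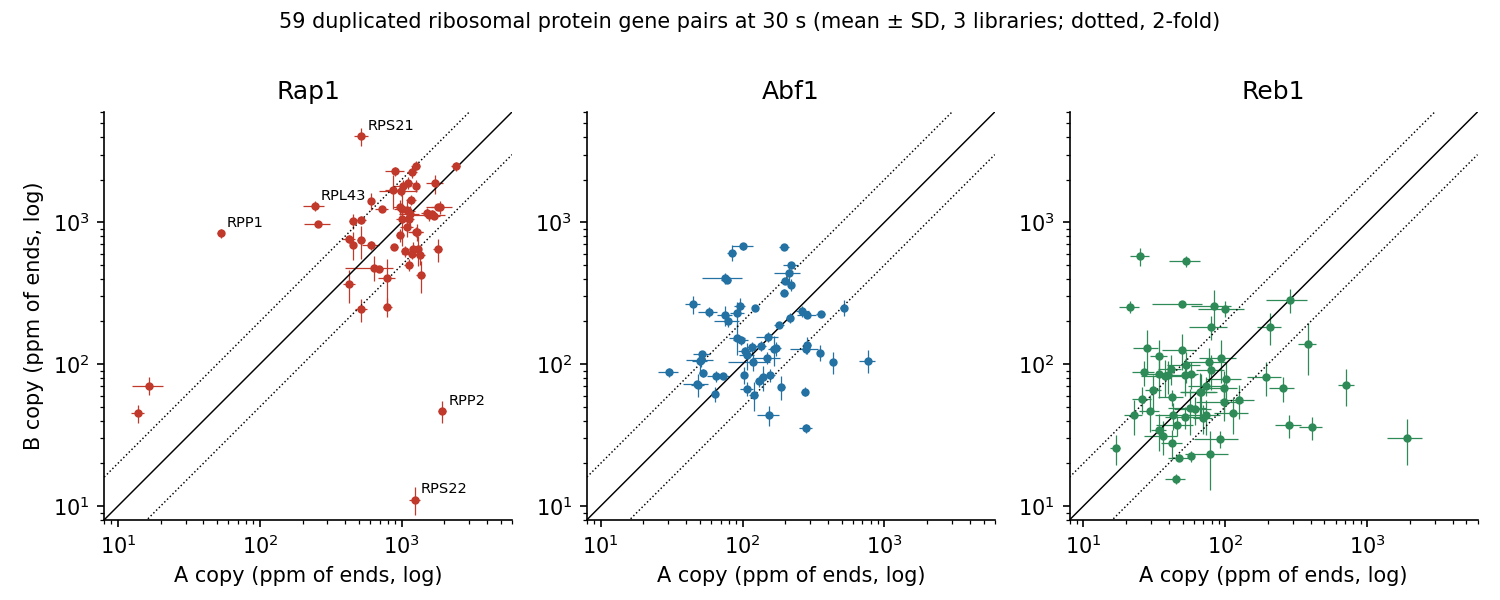
Mean level at 30 s of the A copy and the B copy of 59 duplicated pairs (log axes, bars SD of 3 replicates) in Rap1, Abf1 and Reb1, with the line of equality and dotted lines at 2-fold. In Rap1 most pairs gather in the upper right, and RPS22, RPP2, RPP1, RPS21 and RPL43 lie farthest from the line.

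Rap1 ends at these promoters peaked early in the digestion. The share of Rap1 ends in the 137 windows was 12.3% at 10 s, 13.4% at 20 s, 13.6% at 40 s, 13.1% at 50 s and 12.3% at 60 s, and then 7.50%, 4.65%, 3.12% and 2.18% at 2.5, 5, 10 and 20 m. Single libraries have no replicate error, and the replicates at 30 s spanned 12.4 to 13.8%. Counting alone gave 95% Wilson intervals at most 0.0567 percentage points wide, except in free MNase at 20 s (0.836 to 0.988%). From 30 s to 20 m the level was lower at 129 members and higher at 8, with 128 members at least 2-fold lower and a median log2 change of −2.46. Over all promoters the median change was 1.87, and 87.1% were higher at 20 m. The highest of the 10 Rap1 time points was at 60 s or before at 128 members, against 11.7% of all promoters.

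The Reb1 strain ran the other way. Its share was 1.07% at 10 s, 1.47% at 60 s, 2.75% at 2.5 m and 3.38% at 20 m, and from 30 s to 20 m the level was higher at 128 members and lower at 9, with a median of 1.91 over members and 1.28 over all promoters. At 133 members the highest Reb1 level came at 2.5 m or later, as it did at 82.5% of all promoters. Within 1 date code, the share was 1.56% at 30 s and 2.13% at 5 m with the short linker, and 1.27% and 2.27% with the N-terminal tag. The fragments of the Reb1 libraries from 2.5 m on were also shorter than those at 10 to 60 s, with medians of 99 to 148 bp against 194 to 238 bp, and the part of this in the rise was not tested. RPS14A went against the family, with a Reb1 level of 2528 at 10 s, 386 at 2.5 m and 255 at 20 m. RPL11A rose from 469 at 10 s to 954 at 2.5 m and was 410 at 20 m.

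In the Abf1 strain the share changed less, with 2.34% at 20 s, 2.88% at 60 s and 1.63% at 20 m, and 64 members (46.7%) were higher and 73 lower at 20 m than at 30 s, where 65.7% of all promoters were higher (median −0.07 over members and 0.86 over all promoters). With the short linker, where both times carry 1 date code, the Abf1 share was 1.92% at 30 s and 2.24% at 5 m. The most strongly cut Abf1 members were high from the start, RPS2 with 2248 at 10 s and 159 at 20 m, and RPL3 with 1386 at 10 s and 162 at 20 m. At 57 members the Abf1 maximum came at 5 m, against 13.8% of all promoters, and at 42 members at 60 s or before, near the 28.5% of all. In free MNase the share went from 0.898% at 10 s to 1.31% at 20 m, and 131 members were higher at 20 m than at 30 s (median 0.62, all promoters 0.53).

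The members that Rap1 hardly cut at 30 s held more Rap1 ends later, as did the median of all promoters, at 17.4 at 10 s and 108 at 20 m. In the Rap1 libraries RPS22B went from 7.51 at 10 s to 59.5 at 20 m, RPL4A from 9.51 to 59.4 and RPP2B from 36.7 to 226 at 10 m and 198 at 20 m. RPL3 went from 108 at 10 s to 455 at 5 m and 278 at 20 m. At RPS21B, the most cut member, the level fell from 4574 at 10 s to 1790.5 at 2.5 m and 367 at 20 m. At 20 m the members therefore spanned 59.4 to 367 in Rap1, where the replicates at 30 s spanned 8.38 to 4712.

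Without calcium the share in the 137 windows was 0.876% in free MNase, 0.947% in Abf1, 1.37% in Rap1 and 1.75% in Reb1. These libraries each carry a different date code, so strain and code cannot be told apart among them. RPS21B, at 188.8, was the highest member in the Rap1 library without calcium, where the members' median was 99.7 and that of all promoters 74.4. With other tags at 30 s the share was 1.92% with the short linker in Abf1, below the 2.42 to 2.51% of the long-linker replicates, and 1.56% with the short linker and 1.27% with the N-terminal tag in Reb1, where the replicates spanned 1.28 to 1.68%. RPS14A had 1421 ppm of Reb1 ends with the short linker and 1102 with the N-terminal tag. In the Abf1 X-ChIP library, which is a crosslinked immunoprecipitation and not a cleavage assay, and whose label gives the ABF1-3FLAG-MNase genotype while the methods do not name its strain, the share was 0.928% and the members' median of 68.9 was close to the 68.7 of all promoters, with RPL3 at 83.3 and RPS2 at 73.3.

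Other genes that act on ribosomal protein genes or with their products stood nearer to the shares over all promoters, of which 16.2% were higher and 53.9% lower in Rap1 than in free MNase. Of the 8 regulators RAP1, FHL1, IFH1, SFP1, HMO1, CRF1, SCH9 and TOR1, 2 were higher in Rap1 than in free MNase, SFP1 with a Rap1 level of 499 ± 31.6 and RAP1 itself with 218 ± 19.9, and 2 were lower. In Reb1 the regulators stood above all promoters instead, with a median log2 difference from free MNase of 2.01 against −0.65. The Reb1 level was 698 ± 86.9 at HMO1, 672 ± 12.5 at IFH1 and 449 ± 26.8 at RAP1. FHL1 and CRF1 went the other way, at −1.45 and −0.86 on the log2 scale. Of the 7 chaperones dedicated to ribosomal proteins (RRB1, SQT1, YAR1, SYO1, ACL4, TSR2 and BCP1), 0 were higher by limma and 5 lower in Rap1 than in free MNase, with 1 higher at an unadjusted p below 0.05. Of 12 ribosome biogenesis genes, 2 were higher in Rap1 than in free MNase and 7 lower, and 1 was higher in Rap1 than in Abf1 and 8 lower (11.1% and 48.0% of all promoters). RRP5, for a protein of ribosomal RNA processing, exceeded free MNase by 1.41 on the log2 scale (limma adjusted p = 9.73e-05) and had 133 ± 19.1 in Rap1. NSR1, the yeast nucleolin, was higher in both comparisons, with 639 ± 10.5 in Rap1 and 53.0 ± 12.8 in Abf1.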

How the data were processed

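The 57 libraries were 15 Abf1, 13 Rap1, 17 Reb1 and 11 free MNase ChEC-seq libraries and 1 Abf1 X-ChIP library. Per the labels and methods, the authors kept the small DNA fraction, read both ends of each fragment and placed the read pairs with Novoalign 2.08.03 to sacCer3/V64. The deposited files list the chromosome, start and end of each fragment, not counts, with identical fragments kept and no normalization.

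Groups and replicate numbers came from the labels. Each fragment end was counted in the 800 bp upstream of every start codon (RefSeq R64 annotation, same build) and divided by all nuclear ends outside the ribosomal DNA (chromosome XII, 450000 to 490000). Sequences are from RefSeq R64. Promoters with a mean of at least 5 ppm of ends over the 10 libraries at 30 s were tested with limma 3.58.1 in R 4.3.3 (lmFit, eBayes with trend, Benjamini-Hochberg adjustment) on log2 of the level plus a pseudocount of 1, in a single fit of 3 Abf1, 3 Rap1, 3 Reb1 and 1 free MNase libraries. The single free MNase library was assumed to vary like the other groups. The fit was tested on simulated data. Counting error is small beside the spread between replicates, whose log2 levels correlated at 0.967 to 0.991 and differed by 4.71 to 52.6 times the chi-square expected from sampling, so no library was a copy of another.

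Same-numbered Abf1 and Rap1 libraries share a date code and deviated together (r = 0.439, 0.197 and 0.237), so their numbers were taken to pair them, by the criterion of r over 0.1 in every pair. Replicates 2 and 3 share 1 code, under which differently numbered libraries correlated at 0.228 and 0.134, so code and number cannot be told apart. The numbers of the Reb1 libraries do not pair with either.

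The members and lists were chosen with earlier results of these data known. The 29 genes named with values throughout were the 10 with the highest Rap1 level, the 5 with the highest Abf1 and the 5 with the highest Reb1 level, the 5 with the lowest Rap1 level, those of the 5 most unequal pairs in Rap1, and those lower in Rap1 than in Abf1 or Reb1. Others are named because of small counts, after their values were seen. Alternatives were other pseudocounts (0.25 and 5), no filter, a 500 bp window, a window stopped at the upstream gene, identical fragments counted once, scaling to the median promoter, the date code as a covariate, the replicate block, fits of only the groups compared, adjusted p alone, each replicate left out, and, chosen after the data were seen, free MNase at 40 s or 20 m in place of 30 s. Wilson intervals cover counting error only, since the ends of amplified fragments without molecular identifiers are not independent molecules.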

Additional observations from a re-analysis of the deposited data

Results flagged for a closer look

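Between 2.5 and 20 m, within libraries of the same stage of the digestion, the share of ends in the 137 promoters moved in opposite directions in 2 strains. It changed by −5.32 percentage points in Rap1 and by 0.632 points in Reb1. The Reb1 rise depended on the processing. With identical fragments counted once, the Reb1 share was 2.92% at both times, while the Rap1 share still fell. Nor was the Reb1 rise particular to the family, with a median log2 change of 0.586 over members and 0.599 over all promoters. In Rap1 these medians were −1.72 and 0.807. Each time point is a single library, and the difference between the strains was not tested.

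Libraries without calcium were not part of the comparisons. Their share of ends in the 137 promoters was 1.37% in Rap1, 1.75% in Reb1 and 0.947% in Abf1, all above the 0.876% of free MNase without calcium. Each of these libraries carries a different date code, so strain and code cannot be told apart. Distinct fragments made up 78.9% of the Abf1 library, against 15.4% in free MNase, 17.9% in Rap1 and 30.9% in Reb1.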

How the results depend on the processing

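Against Abf1, the 121 higher and 8 lower members in Rap1 stayed within 1.5 times under every alternative run. Scaling to the median of all promoters moved Rap1 against free MNase to 0 lower, Reb1 against free MNase to 46 higher and 0 lower, Rap1 against Reb1 to 1 lower, and Abf1 against Reb1 to 40 higher and 17 lower. Counting identical fragments once gave 48 higher and 0 lower for Reb1 against free MNase, 1 lower for Rap1 against Reb1, and 1 member at which Reb1 stood above both other factors. Members lower in Abf1 than in free MNase numbered 1 with the 500 bp window, with the window stopped at the upstream gene, with adjusted p alone and with free MNase at 40 s, 2 with free MNase at 20 m (38 higher) and 4 with the date code as a covariate. Members lower in Reb1 than in free MNase numbered 11 at 500 bp, 10 with the stopped window, 30 with the date code, 33 with adjusted p alone and 48 with free MNase at 20 m. Adjusted p alone gave 5 lower for Rap1 against Reb1. Shares at 30 s were, with identical fragments counted once, at 500 bp and with the stopped window, 2.65%, 1.78% and 2.20% in Abf1, 1.74%, 0.965% and 1.16% in Reb1, and 0.771%, 0.524% and 0.614% in free MNase, and they were 10.1% at 500 bp and 11.5% with the stopped window in Rap1. The ratio of the share at 20 m to that at 30 s was in the same order 0.591, 0.589 and 0.588 in Abf1 and 1.68, 2.75 and 2.57 in Reb1, and 0.132 and 0.148 in Rap1. The looser Abf1-type letters matched 83 members and TACCCG matched 17.

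Leaving out each replicate in turn gave 129 to 129 higher and 3 to 3 lower for Rap1 against free MNase, 69 to 71 and 0 to 0 for Abf1 against free MNase, 23 to 28 and 14 to 22 for Reb1 against free MNase, 121 to 121 and 8 to 8 for Rap1 against Abf1, 123 to 125 and 2 to 3 for Rap1 against Reb1, and 63 to 79 and 11 to 12 for Abf1 against Reb1. Shares ran from 12.9 to 13.6% in Rap1, 2.47 to 2.51% in Abf1 and 1.43 to 1.63% in Reb1. With the replicate block, 121 and 8, 125 and 3, and 72 and 11 members were higher and lower in the 3 comparisons between factors, and no member changed its call. The Reb1 numbers do not pair with the others, so in the comparisons with Reb1 the block is arbitrary and its unchanged calls show nothing about pairing. No paired analysis was possible because free MNase at 30 s is a single library, for the comparisons with it.

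Single genes near 0 turned direction. RPS2 in Rap1 against Abf1 was 0.0091 with identical fragments counted once and 0.85 scaled to the median promoter. RPL15B was 0.35 and 1.10 there, and without each replicate it ran from −0.19 to 0.056, being above 0 without Abf1 replicate 3, Rap1 replicate 2 or Rap1 replicate 3. RPS14A in Rap1 against Reb1 was 2.54 at 500 bp, 2.53 with the stopped window, 1.22 with identical fragments once, 0.47 scaled to the median, 0.25 with the date code, and −0.23 to 0.16 without each replicate, above 0 without Rap1 replicate 3 or Reb1 replicate 1. RPL11A was 0.35 and 0.061 with identical fragments once and scaled to the median. At RPS14A the 500 bp and the stopped window leave out its Reb1-type match, while the other settings keep it. The cause of these turns in direction was not tested at any of the genes. Of the remaining values of single genes and medians, 14 lost and 3 gained a call, 33 moved beyond their spread and 625 did not.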
